A study of Mus musculus with 5 samples.

Results

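Expression of 10 heat-shock and chaperone genes was examined in mouse bone marrow during the first days after a leukemia transplant. The genes were taken by name: *Hspa1a*, *Hspa1b*, *Hspa8*, *Hspa5*, *Hsp90aa1*, *Hsp90ab1*, *Hspe1*, *Hspd1*, *Hsph1* and *Dnajb1*, which are 10 of the 28692 genes in the count matrices. For this, 5 C57BL/6J mice, 8 weeks old and not irradiated, each received 1000 BCR-ABL1 pre-B ALL (acute lymphoblastic leukemia) cells through the tail vein. The mouse called day 0 was euthanized right after the transplant and so is not an untreated animal, and 1 mouse each was taken at days 3, 6, 9 and 12. Marrow was flushed from femurs and tibias, the bones were digested with collagenase and DNase at 37 °C for 60 min, red cells were lysed, and the cells were frozen before droplet-based 3' single-cell RNA sequencing (10x Genomics, v2).

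Chaperones bind proteins that are unfolded or not yet folded. HSP70 proteins, which J-domain cochaperones such as DNAJB1 help and which nucleotide exchange factors such as HSPH1 reset, hold short hydrophobic stretches, while HSP90 proteins act later on kinases, receptors and other clients. HSPD1 and its lid HSPE1 form the folding chamber of mitochondria, and HSPA5 (BiP) is the HSP70 protein of the endoplasmic reticulum. Some of these genes are expressed in nearly every cell, whereas *Hspa1a*, *Hspa1b*, *Dnajb1* and *Hsph1* are switched on by the heat-shock factor HSF1 after heat or other protein damage, and *Hspa5* is switched on when unfolded protein gathers in the endoplasmic reticulum. The digestion of tissue into single cells is itself known to raise heat-shock and immediate-early genes.

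Promoter sequences are shown for the members that carry the results below, because *Hspa1a* and *Hspa1b* were high in the same cells and because *Hspe1*, *Hsph1* and *Hspa5* differed between cell types or days. RefSeq (GRCm38.p6) gave a start site for 7 of the 10 genes. Capitals mark a heat-shock element, which was searched as the pairs GAANNTTC and TTCNNGAA on both strands, or the outer parts of an endoplasmic reticulum stress element, which was searched as CCAAT and CCACG with 9 bases between them. Of 32851 mouse promoters, 7.73% held a heat-shock element pair and 0.0822% the endoplasmic reticulum stress element in the 150 bases before the start. *Hspa1a* (chr17:34969190-34972156, minus strand) and *Hspa1b* (chr17:34956436-34959238, minus strand) lie 9951 bases apart. The 150 bases before their starts, at chr17:34972157-34972306 and chr17:34959239-34959388, differ at 1 base, and both hold 1 pair beginning at -104.
Hspa1a: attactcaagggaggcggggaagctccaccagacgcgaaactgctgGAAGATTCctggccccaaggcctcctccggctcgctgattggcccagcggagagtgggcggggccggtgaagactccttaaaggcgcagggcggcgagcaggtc
Hspa1b: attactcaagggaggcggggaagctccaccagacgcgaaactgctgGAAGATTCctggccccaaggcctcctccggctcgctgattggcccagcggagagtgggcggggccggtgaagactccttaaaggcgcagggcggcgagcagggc

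For the other 3 promoters with a match, only the element with 5 bases on each side is given. *Hspe1* (chr1:55088132-55091307, plus strand) starts within *Hspd1* (chr1:55077835-55088243, minus strand), with 112 bases in common, and its element at chr1:55088054-55088081 holds 3 overlapping pairs. Such a run contains the 3-part element, in which a further GAA or TTC follows a pair after 2 bases and which 0.268% of promoters held. The *Hsph1* element is at chr5:149636357-149636374 on the minus strand and that of *Hspa5* at chr2:34772020-34772048 on the plus strand. The RefSeq starts used here lie 120 bases for *Hspa5* and 40 for *Hsph1* from the GENCODE starts behind the gene positions below, so both elements fall within those positions.
Hspe1: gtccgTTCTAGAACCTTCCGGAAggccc
Hsph1: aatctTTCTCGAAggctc
Hspa5: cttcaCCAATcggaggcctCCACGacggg
No such letters were found in the 150 bases before the starts of *Dnajb1* and *Hspd1*. These matches describe the letters only.

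Every barcode with at least 500 UMIs (unique molecular identifiers, 1 per captured molecule) was used, which gave 32135 barcodes, between 5474 and 7604 per library, with a median depth of 2874 to 3786 UMIs. Libraries shared 44 to 73 of these barcodes per pair, beside 43.6 to 68.9 if barcodes were drawn independently. Cells were clustered without the members and without the other chaperone and immediate-early genes, and 9 classes were named from marker genes. These are neutrophil-, monocyte-, GMP- (granulocyte-macrophage progenitor), early progenitor-, plasmacytoid dendritic-, pro/pre-B-, B-, T- and NK-like cells. Transplanted leukemia cells were not told apart from the recipient's pro/pre-B-like cells. A level is the summed count of a gene per 10000 UMIs of a class in 1 library, and it is not scaled to gene length, so levels are compared between classes and days and not between genes. With 1 mouse per day there is no test between days, and day and mouse cannot be told apart.

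Most of the constitutive members were lowest in neutrophil-like cells and had their highest medians in early progenitor- or pro/pre-B-like cells, whereas *Hspa8* had its highest median in monocyte-like cells. *Hspa8* (chr9:40800984-40810087), the HSP70 protein present in nearly all cells, had levels of 12.6, 18.8, 17.5, 15 and 11.3 in monocyte-like cells, given here and below in the order of the days. Neutrophil-like cells had 2.54, 3.00, 2.80, 2.62 and 2.01, and no library of another class reached down to this range. Early progenitor-, pro/pre-B-, GMP-, plasmacytoid dendritic- and NK-like cells had medians of 13.3, 11.8, 11.0, 10.5 and 10.5, and neighbours in this order, monocyte-like cells included, did not differ beyond their spread over libraries. At days 0 and 12 both early progenitor- and pro/pre-B-like cells had more than monocyte-like cells. T-like and B-like cells, at 6.63 and 6.04, overlapped over libraries, although T-like cells were the higher in 5 of 5 mice.

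**Figure D1:**
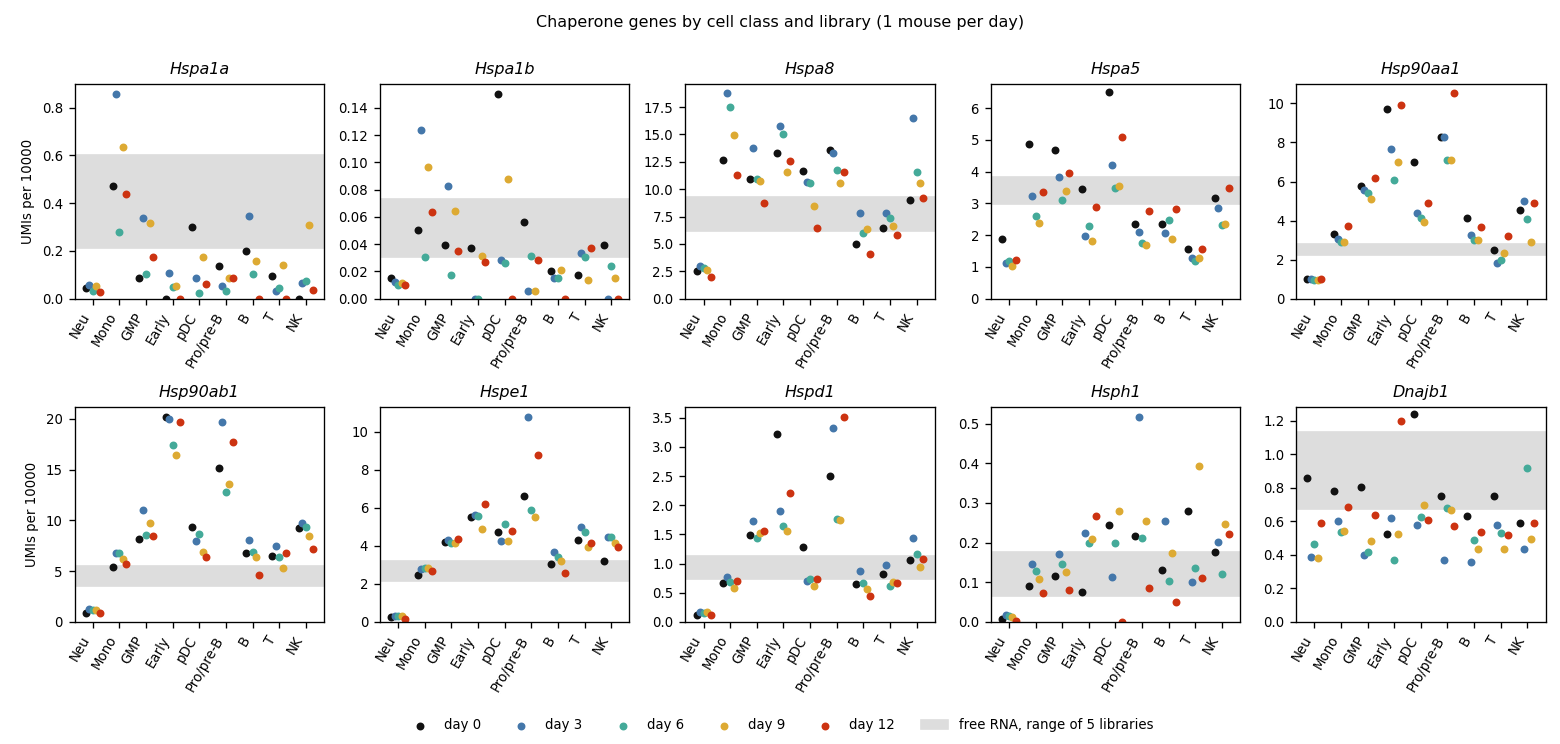
Level of each of the 10 genes (UMIs per 10000, linear axes from 0) in 9 cell classes; each point is 1 library (1 mouse), coloured by day, and the grey band is the range over 5 libraries in barcodes with at most 100 UMIs. *Hspa8*, *Hsp90aa1*, *Hsp90ab1*, *Hspe1* and *Hspd1* were lowest in neutrophil-like cells, whereas *Hspa1a* was, among these 9 classes, above the free RNA of its own library only in monocyte-like cells.

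The 2 cytosolic HSP90 genes shared a pattern across classes. *Hsp90ab1* (chr17:45567775-45573271), the constitutive form, had levels between 16.4 and 20.2 in early progenitor-like cells and of 15.1, 19.7, 12.8, 13.5 and 17.7 in pro/pre-B-like cells. In neutrophil-like cells it was between 0.845 and 1.23. The pro/pre-B range did not overlap that of the next class, NK-like cells, at 7.16 to 9.70. *Hsp90aa1* (chr12:110690605-110702728), the more inducible form, had medians of 8.29 in pro/pre-B-, 7.66 in early progenitor- and 5.57 in GMP-like cells, and 0.991 in neutrophil-like cells.

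Both genes of the mitochondrial folding chamber had their highest medians in pro/pre-B-like cells, with ranges that overlapped those of early progenitor-like cells. *Hspe1* had levels of 6.61, 10.8, 5.87, 5.51 and 8.75 there, against 0.239, 0.318, 0.291, 0.325 and 0.167 in neutrophil-like cells. *Hspd1* had 2.5, 3.33, 1.77, 1.74 and 3.52 there, whereas neutrophil-like cells had 0.122, 0.167, 0.160, 0.168 and 0.122. The medians of all other classes lay between these for both genes, and GMP-like cells had a narrow range of 4.12 to 4.36 for *Hspe1* and of 1.45 to 1.72 for *Hspd1*. At day 0 *Hspd1* was higher in early progenitor-like cells, at 3.23. With cells thinned to 1000 UMIs the pro/pre-B-like medians went from 6.61 to 3.80 for *Hspe1*, from 2.5 to 1.04 for *Hspd1* and from 8.29 to 5.33 for *Hsp90aa1*.

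*Hspa5* (chr2:34771970-34777547) followed another order, led by plasmacytoid dendritic-like cells, a cell type known for its large secretory capacity. Levels there were 6.50, 4.21, 3.49, 3.54 and 5.09, followed by GMP-like cells with a median of 3.84 and monocyte-like cells with 3.24. The ranges of these classes overlapped, at 3.49 to 6.50, 3.12 to 4.70 and 2.38 to 4.89. T-like and neutrophil-like cells were lowest, with medians of 1.30 and 1.18 and overlapping ranges. *Dnajb1* (chr8:83608193-83612653) had class medians from 0.670 in pro/pre-B-like cells to 0.465 in neutrophil-like cells and every neighbouring range overlapping. Its level in free RNA (barcodes with at most 100 UMIs), 0.676 to 1.13, was above that of 6 classes in every library. Free RNA held *Hspa5* at 2.99 to 3.83, above neutrophil-, early progenitor-, pro/pre-B-, B- and T-like cells in every library. The share of the cells' UMIs that came from free RNA was not measured.

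Among the named classes, inducible HSP70 was highest in monocyte-like cells. *Hspa1a* levels in monocyte-like cells were 0.472, 0.858, 0.279, 0.637 and 0.438, higher than in GMP-like cells of the same mouse in 5 of 5 libraries. GMP-like cells had 0.0871, 0.337, 0.103, 0.317 and 0.174. Free RNA held 0.382, 0.491, 0.213, 0.604 and 0.240, so monocyte-like cells were above it in 5 of 5 libraries and the 8 other named classes were below it in each. An unnamed cluster led by *Cd209a* and *Apoe* had more, at 0.925, 1.63, 0.514, 1.47 and 0.440. *Hspa1b* was sparse, with 19 to 58 UMIs per library in monocyte-like cells and levels of 0.0304 to 0.124. *Hsph1* (chr5:149614287-149636376) was lowest in neutrophil-like cells, at 0.00254 to 0.0184, and its ranges overlapped between all neighbours among the 8 other classes.

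Differences between classes were tested with the mice as replicates, each mouse giving both classes of a pair (edgeR's quasi-likelihood test with the mouse as a block, Benjamini-Hochberg adjustment over all genes tested). Of the 10 members, 9 were higher in GMP-like than in neutrophil-like cells, beside 40.1% of 10100 genes higher and 40.5% lower. The largest log2 fold changes were 3.15 ± 0.10 (SE, n = 5) for *Hspe1*, 2.67 ± 0.20 for *Hsph1*, 2.55 ± 0.08 for *Hspd1* and 2.27 ± 0.07 for *Hsp90ab1*, with edgeR adjusted p between 1.6e-22 and 7.7e-13. *Hsp90aa1* was higher by 1.66 ± 0.06, *Hspa1a* by 1.37 ± 0.17, *Hspa8* by 1.24 ± 0.06, *Hspa1b* by 1.16 ± 0.26 and *Hspa5* by 0.72 ± 0.07. The scale matters here, since scaling to all UMIs in place of TMM, which centres on the bulk of genes, moved the median gene by 0.84 toward GMP-like cells and the calls to 66.4% higher and 18.3% lower. Under it the same number of members, 9, was higher, and *Dnajb1* changed direction, from -0.79 ± 0.08 (edgeR adjusted p = 1.9e-10) to 0.05 (adjusted p = 0.555).

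Monocyte-like cells were higher than neutrophil-like cells in 9 of 10 members as well, beside 39.3% of 10409 genes higher and 38.3% lower. *Hspa1a* led with a log2 fold change of 2.49 ± 0.11 (edgeR adjusted p = 3.8e-11), followed by *Hspe1* with 2.23 ± 0.09, *Hsph1* with 2.14 ± 0.19 and *Hspa1b* with 1.47 ± 0.25, while *Hsp90ab1*, *Hspa8*, *Hspd1* and *Hsp90aa1* had 1.40 ± 0.06, 1.38 ± 0.06, 1.06 ± 0.08 and 0.54 ± 0.05. *Hspa5* differed little, by 0.19 ± 0.06 (edgeR adjusted p = 0.0086), and lost its call without the mouse as a block (adjusted p = 0.398) and without the day 3 library (adjusted p = 0.12). *Dnajb1* was lower by TMM, -0.87 ± 0.10, and higher when scaled to all UMIs, 0.28 (edgeR adjusted p = 0.0119). That scaling moved the median gene by 1.13 and the calls to 79.2% higher and 11.5% lower.

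**Figure D2:**
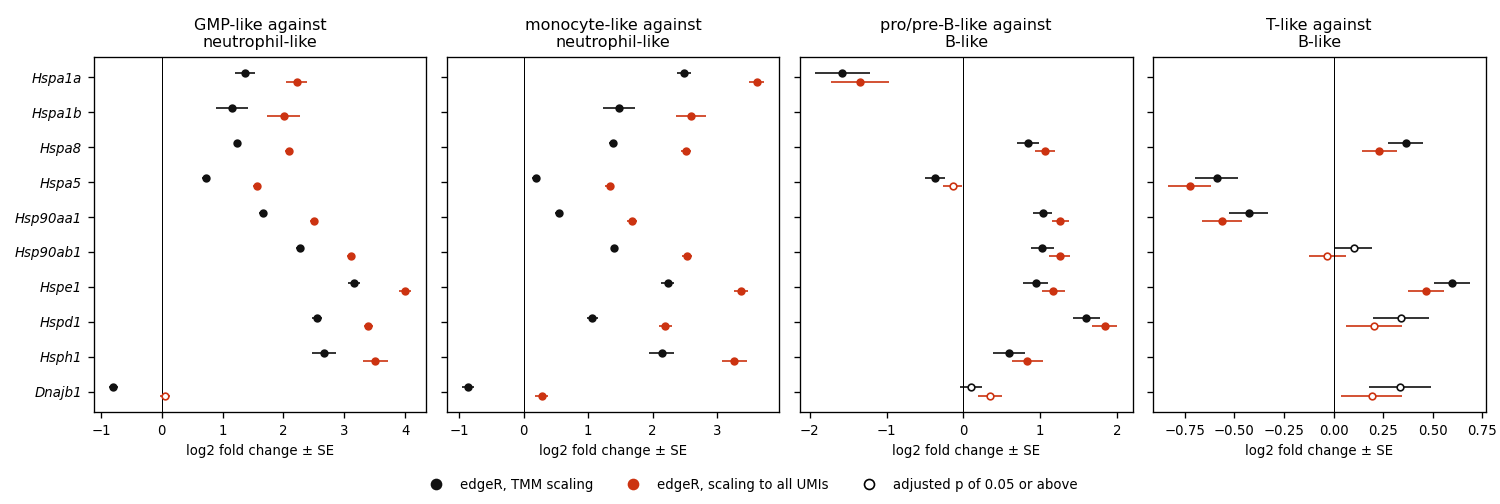
Log2 fold change with its SE (x axis) of each member in 4 pairs of cell classes over 5 libraries, by edgeR with TMM scaling (black) and scaled to all UMIs (red); open points have an adjusted p of 0.05 or above. *Dnajb1* changes sign between the scalings in the first 2 pairs, whereas *Hspe1*, *Hspd1*, *Hsph1* and *Hsp90ab1* lie above 0 under both in the first 3 pairs.

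In the B lineage, 6 of 9 members tested were higher in pro/pre-B-like than in B-like cells, beside 24.0% of 7994 genes higher and 22.6% lower. These were *Hspd1* (1.60 ± 0.17), *Hsp90aa1* (1.03 ± 0.12), *Hsp90ab1* (1.03 ± 0.15), *Hspe1* (0.94 ± 0.16), *Hspa8* (0.84 ± 0.14) and *Hsph1* (0.59 ± 0.20), with edgeR adjusted p from 1.5e-06 to 0.025. *Hspa1a* (-1.58 ± 0.36, adjusted p = 0.0018) and *Hspa5* (-0.37 ± 0.13, adjusted p = 0.031) were lower by edgeR, *Dnajb1* did not pass (0.10 ± 0.14, adjusted p = 0.582) and *Hspa1b* was too sparse to test. Scaling to all UMIs moved the median gene by 0.24 and the calls to 34.6% higher and 14.9% lower, and left *Hspa5* at -0.14 (edgeR adjusted p = 0.374). The *Hspa5* call was also lost without the mouse as a block (adjusted p = 0.0926) and without the library of day 0, 6 or 9 (adjusted p = 0.0501, 0.198 and 0.124) by edgeR. By edgeR, the *Hsph1* call was lost without the mouse as a block (0.77, adjusted p = 0.108), and without the day 3 library (0.49, adjusted p = 0.0992) or the day 6 library (0.56, adjusted p = 0.0882). With every cell thinned to 1000 UMIs, so that each cell had the same weight, the *Hspe1* difference was -0.06 (edgeR adjusted p = 0.732) and that of *Hspd1* 0.60 (adjusted p = 0.0062).

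Members also varied within the pro/pre-B-like class. The cluster led by *Myl4*, *Hist1h2ap* and *Ezh2*, with histone and replication genes among its leading genes, had *Hspe1* levels of 10.1, 10.5, 7.95, 7.19 and 11.9 and *Hsp90ab1* levels of 21.3, 19.8, 15.8, 17.0 and 23.0. In the cluster led by *Dnajc7* and *Rag1*, the recombinase gene, *Hspe1* was between 2.03 and 2.41 and *Hsp90ab1* between 6.27 and 7.72 over 4 libraries. These values were below those of the *Ms4a1* cluster of B-like cells, at 3.50 to 4.10 and 8.09 to 10.6. *Hspa5* did not separate the clusters in this way, at 1.63 to 3.26 in the first and 1.79 to 2.67 in the second.

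**Figure D3:**
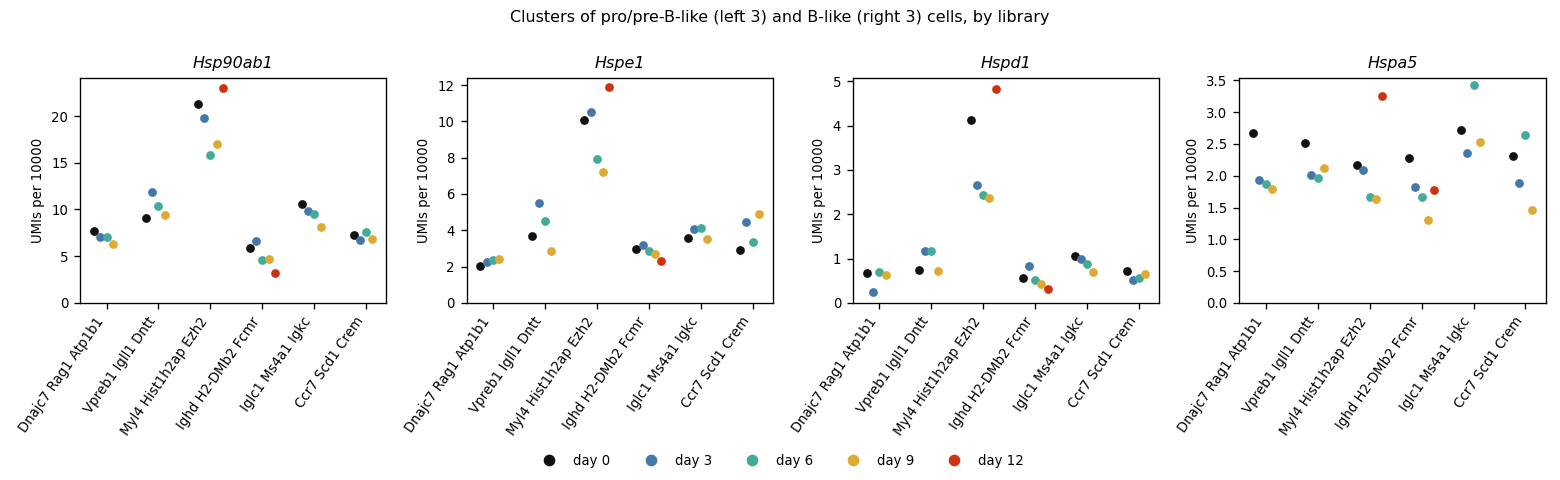
Levels (UMIs per 10000) of 4 members in 3 clusters of pro/pre-B-like cells (left) and 3 of B-like cells (right), named by leading genes, with 1 point per library coloured by day. *Hspe1* lies between 7.19 and 11.9 in the *Myl4 Hist1h2ap Ezh2* cluster and is at most 5.48 in the other 5 plotted; a further pro/pre-B-like cluster, mostly of day 3 and with 11.8 there, is not plotted, and *Hspa5* overlaps between clusters.

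GMP-like cells held a like contrast. *Hsp90ab1* was between 11.5 and 15 in the cluster led by *Elane*, *Ctsg* and *Mpo*, genes of the primary granules. It was between 1.61 and 2.18 in the cluster led by *Fcnb*, which also had *Elane* and *Prtn3* among its leading genes. *Hspe1* was between 5.59 and 7.06 in the first and between 0.407 and 0.718 in the second. The clusters were made without these genes, but from the same cells, and no test was made between them.

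T-like cells differed from B-like cells in 4 of 7 members tested, beside 16.9% of 5582 genes higher and 14.3% lower. *Hspe1* (0.60 ± 0.09, edgeR adjusted p = 3.0e-06) and *Hspa8* (0.36 ± 0.09, adjusted p = 0.0017) were higher in T-like cells. *Hspa5* (-0.59 ± 0.11, edgeR adjusted p = 5.9e-05) and *Hsp90aa1* (-0.43 ± 0.10, adjusted p = 9.2e-04) were lower. The *Hspa8* call was lost without the mouse as a block (0.34, adjusted p = 0.107), and *Hsp90ab1* (0.10 ± 0.09, adjusted p = 0.470) did not pass and was -0.03 when scaled to all UMIs. That scaling moved the median gene by -0.14 and the calls to 12.1% higher and 19.97% lower.

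Genes of 6 other chaperone lists were counted in the same tests, with TMM scaling only. Over all genes, 40.1%, 39.3%, 24.0% and 16.9% were higher in the 4 pairs, in the order given above, and 40.5%, 38.3%, 22.6% and 14.3% lower. Scaled to all UMIs, 66.4% and 79.2% of genes were higher in the first 2 pairs. The TRiC chaperonin, the cytosolic ring that folds actin and tubulin, was higher in 7 of 7 subunits tested in GMP- and monocyte-like cells against neutrophil-like cells and in pro/pre-B-like against B-like cells, and in 0 of 7 in T-like against B-like cells, by edgeR. *Cct3* had log2 fold changes of 2.45 ± 0.09, 1.35 ± 0.08 and 0.93 ± 0.14 in the first 3. Of 19 endoplasmic reticulum genes, 14 were higher and 3 lower in GMP-like cells, and 13 were higher and 3 lower in monocyte-like cells, led by *Sdf2l1* (3.17 ± 0.08 and 2.31 ± 0.07) and *Pdia4* (3.07 ± 0.10 and 2.03 ± 0.11). In T-like cells 11 of 17 were lower and 0 higher than in B-like cells, including *Xbp1* (-1.75 ± 0.25) and *Hsp90b1* (-1.39 ± 0.17), and in pro/pre-B-like cells 5 of 18 were lower and 2 higher. The HSP90 and HSP70 cochaperones were higher in 12 of 14, 10 of 13 and 11 of 13 genes in the first 3 pairs and in 1 of 11 in T-like cells, and lower in 1, 2, 0 and 1, among them *Fkbp4* (2.38 ± 0.09, 1.25 ± 0.07 and 1.20 ± 0.19), an HSP90 partner. Mitochondrial chaperones and proteases were higher in 7 of 8, 7 of 8, 4 of 8 and 0 of 5, and prefoldin subunits in 4 of 6, 4 of 6, 5 of 6 and 0 of 6. The mitochondrial list had 0 lower in each pair, and prefoldin subunits had 2, 2, 1 and 0 lower. The heat-shock list, made of other genes driven by HSF1 and also of *Hsf1*, *Hsf2* and *Hsbp1*, was mixed. It had 4 higher and 5 lower of 12 in GMP-like cells and 5 and 6 of 13 in monocyte-like cells. In pro/pre-B-like cells it had 3 and 2 of 10, and in T-like cells 1 and 2 of 8.

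Against the day 0 mouse, *Hspa5* and *Dnajb1* were the members most often lower at later days. A ratio of at least 1.5 was used as a fixed size, for classes with at least 20 cells and genes with at least 50 UMIs over both libraries, and all 4 comparisons share the day 0 library. Of the pairs of a member and a class, 12 of 70 were lower at day 3, 13 of 68 at day 6, 12 of 72 at day 9 and 5 of 68 at day 12. Over all genes, 9.13%, 6.48%, 7.89% and 7.31% of pairs were lower. Higher were 9, 1, 2 and 2 pairs of members, beside 9.78%, 10.4%, 11.4% and 6.55% of all pairs. Median log2 ratios of the members were 0.16, -0.11, -0.18 and -0.11, and those of all pairs 0.05, 0.06, 0.04 and 0.01. The day 12 counts were near or below the background, and the higher pairs at day 3, 12.9% of those tested, were near it.

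*Hspa5* had a level of 4.89 in monocyte-like cells at day 0 and of 3.24, 2.60, 2.38 and 3.36 at days 3, 6, 9 and 12. It was 1.51, 1.88 and 2.05 times lower at days 3, 6 and 9, beside 4.56%, 3.93% and 5.21% of genes in that class (3.51% at day 12), with counting intervals of the ratio of 0.622 to 0.706, 0.499 to 0.566 and 0.456 to 0.522. In neutrophil-like cells its levels were 1.89, 1.13, 1.18, 1.04 and 1.23, and it was past the fixed size at all 4 later days, beside 4.41%, 3.42%, 4.46% and 4.92% of genes. The median gene of the class was at a log2 ratio of 0.15, 0.22 and 0.22 at days 3, 6 and 9. The log2 ratio of *Hspa5* was below 0 in 9, 8, 9 and 5 of 9 classes, and past the size in 4, 5, 4 and 1. Within monocyte-like cells, the cluster led by *Nr4a2* and *Cd14* had the highest *Hspa5* in every library, at 8.89, 6.51, 4.66, 4.38 and 7.48, and day 0 was also highest in the clusters led by *S100a4* and *Fn1* and by histone genes. With clusters weighted as at day 0, the log2 ratio at day 3 went from -0.59 to -0.37, and that of neutrophil-like cells at day 12 from -0.62 to -0.51, both under the fixed size. In neutrophil-like cells 3 clusters did not have their highest *Hspa5* at day 0. The one led by *Mmp8* and *Mmp9* had 0.751, 0.986, 1.07, 0.689 and 0.893, the one led by *Gm5483* and *Retnlg* 1.11 at day 0 and 1.16 at day 6, and the one led by *Rsad2* 1.22 at day 0 and 1.25 at day 3.

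*Dnajb1* had levels of 0.856, 0.386, 0.465, 0.384 and 0.592 in neutrophil-like cells, 2.22, 1.84 and 2.23 times lower at days 3, 6 and 9 than at day 0. GMP-like cells had 0.803, 0.401, 0.418, 0.481 and 0.635. Its level was past the fixed size below day 0 in 5 of 8, 3 of 8, 4 of 9 and 1 of 8 classes, and above it in NK-like cells at day 6 (38 against 30 UMIs) and in early progenitor-like cells at day 12 (45 against 14 UMIs). In neutrophil-, monocyte- and GMP-like cells, day 0 lay above all 4 later libraries for *Hspa5* and *Dnajb1* only. These were 2 of 8, 2 of 10 and 2 of 9 members with at least 100 UMIs over the 5 libraries. Over all genes this held for 14.7%, 17.0% and 14.1%. As many members lay the other way in 2 of these classes. Day 0 lay below all 4 later libraries for *Hsp90ab1* and *Hspe1* in monocyte-like cells and for *Hspa1a* and *Hsp90ab1* in GMP-like cells. *Hspa1b* in neutrophil-like cells, under the minimum of 100 UMIs with 13 to 20 per library, was highest at day 0 as well. The free RNA moved in the same direction, at 3.83 for *Hspa5* at day 0 against 2.99 to 3.12 later, and at 1.13 for *Dnajb1* against 0.676 to 0.844.

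**Figure D4:**
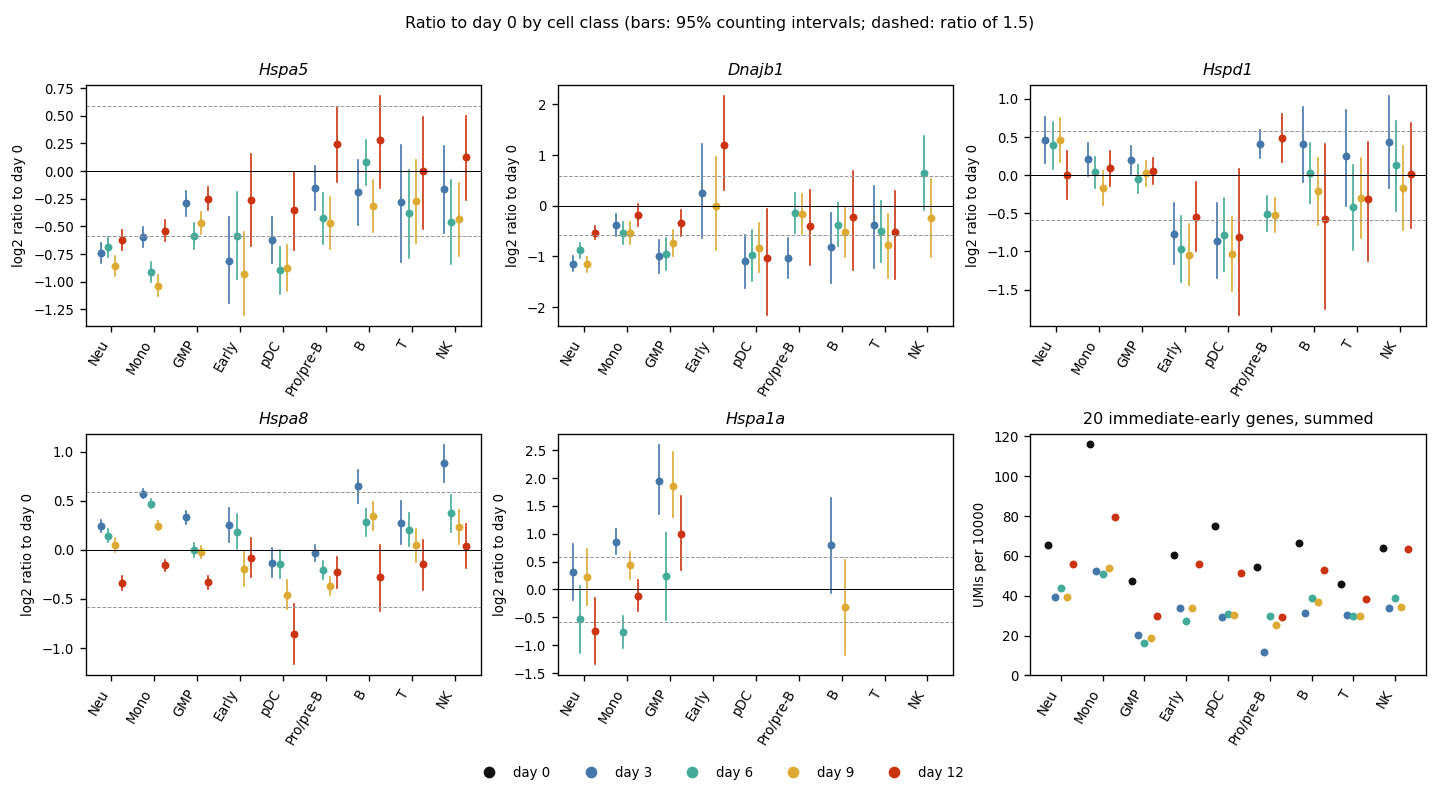
Log2 ratio to day 0 of 5 members by cell class and day (points, with 95% counting intervals as bars; dashed lines mark a ratio of 1.5), and, in the last panel, the summed level of 20 immediate-early genes (UMIs per 10000). *Hspa5* and *Dnajb1* lie mostly below 0 at days 3, 6 and 9, and the immediate-early sum is highest at day 0 in all 9 classes.

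Immediate-early genes were also mostly lower at days 3, 6 and 9 than at day 0. The summed level of 20 such genes was 115.9, 52.2, 51.0, 53.7 and 79.6 in monocyte-like cells and 65.3, 39.2, 43.7, 39.1 and 55.8 in neutrophil-like cells. Day 0 was the highest library in all 9 classes, narrowly so in NK-like cells, at 64.0 against 63.6 at day 12. At most 1 of the 20 genes was at 0 in any class of any library. *Fos* had levels of 29.2, 11.6, 11.2, 12.3 and 21.3 in monocyte-like cells, *Jun* of 8.90, 5.22, 3.86, 4.92 and 5.78, *Junb* of 9.23, 4.25, 4.25, 3.61 and 6.03 and *Jund* of 6.25, 2.96, 3.02, 3.86 and 4.76. Of the pairs of an immediate-early gene and a class, 78.4%, 73.4%, 77.6% and 37.8% were lower than day 0 at days 3, 6, 9 and 12. The part of tissue handling in the day 0 levels of *Hspa5* and *Dnajb1* was not tested.

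Plasmacytoid dendritic-like cells had the largest share of members below day 0. At days 3, 6 and 9, 4 of 7 members tested were lower, beside 8.56%, 9.80% and 10.2% of genes, and these were *Hspa5*, *Hsp90aa1*, *Hspd1* and *Dnajb1* each time. At day 12, *Hspa8*, *Hspd1* and *Dnajb1* were, beside 10.3%. *Hsp90aa1* levels were 7.01, 4.39, 4.14, 3.91 and 4.91, and *Hspd1* levels 1.28, 0.704, 0.741, 0.623 and 0.728. Day 0 lay above all 4 later libraries for 6 of 7 members, beside 24.6% of genes, with *Hspe1* the exception at 4.72, 4.27, 5.14, 4.26 and 4.79. The class held 115 cells at day 0 and 33 at day 12. Early progenitor-like cells, with 26 cells at day 0, also had *Hspd1* highest at day 0, at 3.23 against 1.89, 1.65, 1.57 and 2.22.

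The chaperones outside the members were counted by list. Genes of the heat-shock list were lower in 21.9%, 23.0%, 29.7% and 14.5% of pairs at days 3, 6, 9 and 12. Among them were *Dnajb4*, a J-domain cochaperone (12 of 17 pairs, median log2 ratio -0.88), and *Bag3*, an HSP70 exchange factor (2 of 4, -0.56). Endoplasmic reticulum genes were lower in 12.6%, 16.4%, 18.9% and 16.3%, led by *Dnajb9* (20 of 25, -0.85), *Ddit3* (15 of 28, -0.71) and *Atf4* (20 of 36, -0.60), of which the last 2 are stress transcription factors and not chaperones. Both shares exceed those over all genes at each day. At day 12 cochaperones (11 of 97 pairs) and mitochondrial chaperones (4 of 37) were also above the 7.31% over all genes. The mitochondrial shares at days 6 and 9, from 3 of 44 and 4 of 48 pairs, were close to the 6.48% and 7.89% over all genes. Cochaperones had 4.81%, 2.94%, 4.72% and 11.3% of pairs lower, mitochondrial chaperones 8.70%, 6.82%, 8.33% and 10.8%, TRiC subunits 1.61%, 1.59%, 4.76% and 3.23%, and prefoldin subunits 3.77%, 3.77%, 7.41% and 0%.

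The 9 higher pairs at day 3 came from *Hspa8*, *Hspe1*, *Hsph1*, *Hspa1a* and *Hspa1b*. *Hspa8* was higher in NK-like cells, from 8.98 to 16.5 (ratio 1.84, counting interval 1.62 to 2.09), and in B-like cells, from 4.98 to 7.79 (1.56, 1.39 to 1.75), and stood at 9.23 and 4.11 by day 12. In pro/pre-B-like cells *Hspe1* was 1.63 times and *Hsph1* 2.38 times as high as at day 0, with 195 against 27 UMIs for *Hsph1*. In monocyte-like cells *Hsph1* was 1.61 times as high (68 against 48 UMIs). The day 3 library holds a pro/pre-B-like cluster led by *Myl10*, *Rnase12* and *Vpreb2* with 128 of its 177 cells at day 3, where it had a median of 19774.5 UMIs per cell, an *Hspe1* level of 11.8 and an *Hsph1* level of 0.587. Without this cluster the ratios were 1.24 and 1.54. The median gene of the class was at -0.16 at day 3.

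A few cells held much of the *Hspa1a* signal. *Hspa1a* was 1.82 times as high at day 3 as at day 0 in monocyte-like cells (counting interval 1.55 to 2.13), beside 9.67% of genes higher. There it was 1.69 times lower at day 6, beside 3.93% of genes lower. In GMP-like cells it was 3.87, 3.64 and 2.0 times as high at days 3, 9 and 12, beside 13.2%, 16.3% and 4.33% of genes higher. *Hspa1b* was 2.45 times as high in monocyte-like cells at day 3 (58 against 27 UMIs) and 1.91 times at day 9 (53 UMIs), where 10.4% of genes were higher. Of 32135 barcodes, 178 held at least 4 *Hspa1a* UMIs, a threshold chosen after the values were seen. Among monocyte-like cells these were 8 of 864, 24 of 542, 6 of 680, 24 of 707 and 7 of 624, or 0.926%, 4.43%, 0.882%, 3.39% and 1.12%. They held 23.8%, 76.6%, 37.9%, 66.5% and 39.9% of the *Hspa1a* UMIs of the class, and 1 cell of day 3 held 46. Without them the levels were 0.364, 0.211, 0.175, 0.222 and 0.267, with day 0 the highest and no longer day 3. The cells were chosen by *Hspa1a* itself, so this fall is built into the choice and the new order of days is no test.

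Other clusters held such cells as well. In an unnamed cluster led by *Cd209a* and *Apoe*, 38 of 706 cells (5.38%) had at least 4 *Hspa1a* UMIs, and in an unnamed cluster led by *Cxcl10* and *Mnda* it was 27 of 376 (7.18%), with all 5 libraries contributing to both. GMP-like cells had 1, 5, 1, 10 and 7, with 12.9%, 70.0%, 82.8%, 76.9% and 73.3% of the *Hspa1a* UMIs of the class. Without them the GMP-like levels were 0.0761, 0.106, 0.0178, 0.0761 and 0.0481, a fall that again follows from the choice of cells. Neutrophil-like cells had 2 in all, at 1 of 2779 at day 3 and 1 of 3699 at day 12, and T-like cells had 0 in each library, where 0 of 506 cells at day 0 has an exact binomial interval up to 0.726%. The share of cells with any *Hspa1a* UMI was 13.1% to 17.9% in monocyte-like cells and 0% to 3.56% in T-like cells, a class with *Hspa1a* below free RNA, at median depths of 5675.5 to 7956 and 1789 to 2536 UMIs. With cells thinned to 1000 UMIs the shares were 2.38% to 5.44% and 0% to 1.69%.

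In the same monocyte-like cells the other heat-shock members were higher. The 69 cells were set against 2887 with no *Hspa1a* UMI, and their median depths were 7404 and 6639 UMIs. *Hspa1b* was at 1.72 against 0.0260, a ratio of 66.2 (counting interval 47.5 to 93.2), and had a UMI in 35 of 69 cells (50.7%), in 3.69% of 461 cells with 1 to 3 *Hspa1a* UMIs and in 1.66% of those with none. *Hsph1* was 3.29 times (2.02 to 5.10), *Hsp90aa1* 2.71 times (2.47 to 2.97), *Dnajb1* 2.36 times (1.87 to 2.94) and *Hspa8* 1.70 times (1.62 to 1.79) as high. *Hspa1b*, *Hsp90aa1* and *Dnajb1* were higher in 5 of 5 libraries, *Hspa8* in 4 of 5 and *Hsph1* in 3 of 5. *Hspe1*, *Hsp90ab1* and *Hspd1* had ratios of 1.47 (0.811 with cells thinned to 1000 UMIs), 1.44 and 1.36, and *Hspa5*, the member of the endoplasmic reticulum, of 0.957 (0.826 to 1.10). Thus 5 of 9 members reached a ratio of 1.5, beside 9.02% of 9638 genes, with no test, since cells are not replicates.

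**Figure D5:**
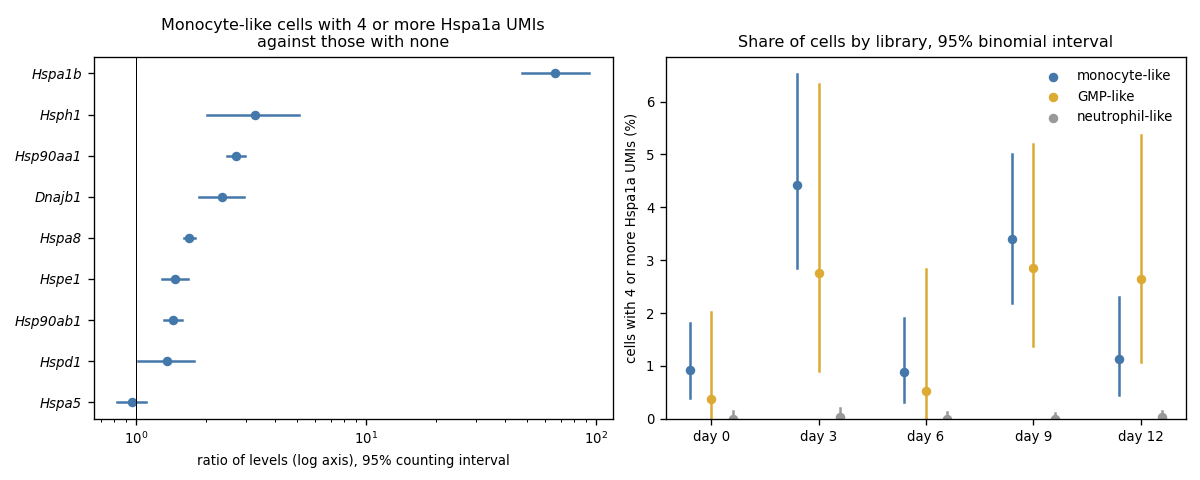
Left, ratio of the level in 69 monocyte-like cells with at least 4 *Hspa1a* UMIs to that in 2887 with none (log axis, 95% counting intervals), for the 9 other members. Right, percent of cells with at least 4 *Hspa1a* UMIs by library and class (95% binomial intervals), between 0.882% and 4.43% in monocyte-like cells and at most 0.0360% in neutrophil-like cells.

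In GMP-like cells, 24 such cells were set against 1160 with none. Of the 24, 19 were in the cluster led by *Elane*, *Ctsg* and *Mpo*, where *Hsp90ab1* and *Hspe1* were also higher than in the *Fcnb* cluster. *Hspa1b* was 135 times (72.5 to 270.4), *Hsph1* 4.71 times, *Dnajb1* 2.49 times and *Hsp90aa1* 1.82 times as high. *Hspa8*, *Hspe1*, *Hspd1*, *Hsp90ab1* and *Hspa5* had ratios of 1.63, 1.61, 1.58, 1.49 and 1.42. In monocyte-like cells, *Dnaja1*, an HSP70 cochaperone, was the 1 of 13 genes of the heat-shock list past 1.5. *Stip1*, the adaptor between HSP70 and HSP90, was the 1 of 13 cochaperones. None of 19 endoplasmic reticulum, 8 mitochondrial, 7 TRiC and 6 prefoldin genes reached it, while 8 of 19 immediate-early genes did, including *Jun*, *Egr1* and *Atf3*. At least 1.5 times lower were 2 genes of the heat-shock list, *Cryab* and *Hsf1*, and 1 gene each of the cochaperone, endoplasmic reticulum and immediate-early lists. Over all genes, 869 of 9638 were higher and 1610 lower by this size. In the last 500 bases of the *Hspa1a* and *Hspa1b* transcripts, where 3' reads fall, no window of 90 bases was shared with another gene, so the 2 genes can be told apart there. For *Hspa8*, 24.6% of such windows were shared with *Gm15459*, *Gm8355* or *Snord14e*, and how reads from these windows were counted was not examined.

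Across 45 combinations of class and library, genes most like the members in log2 level were also listed, among 6106 genes, as a description in which the points share libraries. *Hsp90ab1* was closest to *Npm1* (r = 0.984), *G3bp1* and *Serbp1*, and *Hspd1* to *Mrpl12* (0.965), *Mif* and *Erh*. *Hspa8* was closest to *Fkbp1a* (0.94), *Hint1* and *Uqcc2*, and *Hspa5* to *Pdia3* (0.924), *Spcs2* and *Ddost*. *Hspa1a* had no gene as near, with *Naaa* (0.755), *Lamp1* and *Blvra* first. Among members, *Hsp90ab1* and *Hspe1* had r = 0.948, and *Hspa1a* had at most 0.381 with the 7 members compared, which left out *Hspa1b* and *Hsph1*. *Hspa1a* was sparse in B-, NK-, early progenitor- and T-like cells, with 0 to 29, 0 to 20, 0 to 8 and 0 to 11 UMIs per library. Its median levels in NK- and T-like cells, 0.0669 and 0.0456, were below the 0.1 added before taking log2. Whether the low r of *Hspa1a* reflects these small counts or a separate pattern was not tested.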

How the data were processed

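The 5 single-cell libraries of mouse bone marrow, 1 mouse per day, were analysed. Per the labels and the study's methods, the authors aligned reads to mm10 with Cell Ranger and deposited unfiltered UMI counts, in which empty droplets are kept; the annotation release used for counting is not given in the sources used here. Libraries held 33425695 to 43554233 UMIs. Barcodes with at least 500 UMIs were kept, with no mitochondrial limit and no doublet removal in the main results. Counts were clustered in scanpy 1.11.5 with leidenalg 0.10.2 (20 principal components, resolution 1.5, members and chaperone lists left out), and clusters were named from markers, with no alignment between libraries. Barcodes of 100 UMIs or fewer stood for free RNA. Intervals are exact, at 95%, and cover counting error only. Classes were compared with edgeR 4.0.16 in R 4.3.3 on sums per library and class, an adjusted p under 0.05 counting as a call, with DESeq2 1.42.0 as an alternative. Same-mouse classes pair by design, so the mouse was a block. In data simulated for GMP against neutrophil, 100% of genes changed 4-fold, 68% of those raised 2-fold, 56% of those lowered to 0.5 and 18% of those changed 1.5-fold were recovered. Named genes are all members, up to 3 genes per list with the largest change, the 3 genes most like 5 members (log2 of level + 0.1), and 4 immediate-early genes; 1 gene that the rule names is not reported here. Members, lists and tests were chosen with earlier results of these data known. Whether libraries of 1 mouse each differ through the mouse or the day cannot be told apart.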

Additional observations from a re-analysis of the deposited data

Results flagged for a closer look

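*Hspa8* had day ratios above 1 at all 4 later days in NK-like cells (log2 0.04 to 0.88, median 0.30) and below 1 at all 4 in plasmacytoid dendritic-like cells (-0.86 to -0.13, median -0.30) and pro/pre-B-like cells (-0.37 to -0.03), and the largest difference of medians was 0.60. *Hsp90ab1* was above 1 in GMP-like (median log2 0.16) and monocyte-like cells (0.25) and below 1 in early progenitor-like (-0.12) and plasmacytoid dendritic-like cells (-0.33) at all 4 later days, with a largest difference of medians of 0.58. Neither difference was tested, with 1 mouse per day, and all ratios share the day 0 library.

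Outside the named classes, *Hspa1a* in free RNA was 1.58 times the day 0 level at day 9 and *Hsph1* in free RNA 1.54 times at day 3. In barcodes of unnamed clusters, *Hspa1a* was higher at days 3 and 9, up to 2.28 times day 0, with levels of 0.386, 0.829, 0.384, 0.881 and 0.286 over the 5 days. *Hspa1b* in the same barcodes was higher at days 3 and 9 as well, up to 4.25 times, on 11, 58, 17, 57 and 8 UMIs. These ratios were not tested.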

How the results depend on the processing

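Of 56 calls of a member, class and day, none changed direction in 14 alternatives. Setting the count minimum to 1 or 200, or the ratio to 2, leaves each log2 ratio as it was, so direction cannot change there. A minimum of 1 summed count also keeps all 56 calls by design, and a ratio of at least 2 kept 14. Leaving out the pro/pre-B-like cluster mostly of day 3 can affect calls in that class only. Among the remaining alternatives, between 19 and 55 calls were kept, with 31 not testable after thinning every cell to 1000 UMIs. The counts of lower pairs at days 3, 6, 9 and 12 (12, 13, 12 and 5) moved to 4, 0, 4 and 1 with a ratio of at least 2, to 19 (day 3), 25 (day 6) and 14 (day 12) with at least 1 summed count, and to 7, 7 and 3 (days 3, 6 and 12) after thinning. Day 12 gave 9 with a mean over cells, 10 at Leiden resolution 0.6 and 2 with at least 200 counts. The counts of higher pairs (9, 1, 2 and 2) moved to 3, 0, 1 and 1 with a ratio of 2, to 15, 4, 5 and 6 with at least 1 count and to 5, 0, 0 and 0 with at least 200. At day 6 they were 0 with a mitochondrial limit of 3 median absolute deviations or thinning, and 2 with doublets removed, a mean over cells or resolution 0.6. At day 9 they were 4 with a mean over cells or resolution 0.6, and at day 12 0 with the mitochondrial limit or resolution 0.6 and 1 after thinning. No paired analysis was possible for days because each day has 1 library.

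Between classes, the mouse as a block was removed as an alternative: without the replicate block, lower members in pro/pre-B- against B-like cells went from 2 to 1 and higher members in T- against B-like cells from 2 to 1, while GMP- against neutrophil-like cells stayed at 9 higher. Lower members in pro/pre-B-like cells were also 1 with all UMIs as scale, DESeq2 or all genes, 0 after thinning or at resolution 0.6, and 1 to 2 with 1 library left out (*Hspa5* was lost without day 0, 6 or 9). Higher members in T-like cells were 4 with doublets removed and 5 at resolution 0.6. Scaled to all UMIs, a setting added after seeing the data, 0 members were lower in GMP- or monocyte- against neutrophil-like cells, and *Dnajb1* turned to 0.050 and 0.28 and *Hsp90ab1* in T- against B-like cells to -0.033. Thinning turned *Hspe1* in pro/pre-B- against B-like cells to -0.064 and its ratio in *Hspa1a*-high cells to 0.811, and lowered the pro/pre-B-like levels of *Hsp90aa1*, *Hspe1* and *Hspd1* to 5.33, 3.80 and 1.04. The causes were not tested; thinning gives each cell equal weight. *Hspa1b* in *Hspa1a*-high cells was 44.7 to 88.9 times higher over the alternatives, thresholds of 3 and 6 UMIs included. Sparse members limit precision: *Hspa1b* passed the count minimum in at most 1 class per day.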
